A study of Mus musculus with 6 samples.

Results

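The cells described here are fibroblasts of mouse dorsal skin that carry the inflammatory transcripts Cxcl5, Il1rl1 and Ptx3 and little fibrillar collagen mRNA. There were 2723 such cells among 34834 kept cells and among 5353 fibroblasts. A cell was kept with 500 or more unique molecular identifiers (UMIs, each standing for 1 captured transcript molecule), 300 or more detected genes and no more than 10% of UMIs from mitochondrial genes. It counted as a fibroblast with at least 5 UMIs of Col1a1, Col1a2, Col3a1, Dcn and Sparc together, more of these than of the keratinocyte genes Krt5 and Krt14, fewer than 2 UMIs of the endothelial genes Pecam1 and Cdh5 and fewer than 2 of the mural genes Rgs5, Notch3, Kcnj8, Abcc9 and Myh11. Members also had at least 3 UMIs of Cxcl5, Il1rl1 and Ptx3 together, called the program below, and under 2% of their UMIs from Col1a1, Col1a2 and Col3a1. The members were thus chosen by measured values, so their difference from other fibroblasts is described without a test.

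The mice were male, wildtype C57BL/6, an inbred laboratory strain, and were 8, 26 or 52 weeks old. At each age 1 library came from skin dissociated directly after collection and 1 from skin exposed ex vivo to PBMC-sec, the secretome of gamma-irradiated mononuclear blood cells, before the same dissociation. Each of the 6 libraries pooled 3 animals, with 1 library per age and treatment. The labels give neither length nor dose of the exposure. Whether both libraries of an age shared animals is not said there either. The effect of PBMC-sec and that of holding skin outside the body cannot be told apart. Where 3 values follow each other without further label, they are those of 8, 26 and 52 weeks.

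Fibroblasts build the dermal matrix, and on damage or exposure to interleukin-1 or tumour necrosis factor they can turn to an inflammatory state controlled by NF-kB. In that state they release chemokines that recruit neutrophils through the receptor CXCR2, with Cxcl5 among them, together with the pattern-recognition molecule pentraxin 3 (Ptx3) and colony-stimulating factors. Il1rl1 encodes ST2, the receptor of the alarmin interleukin-33, in a membrane-bound and a secreted form.

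The libraries held 4083 to 9520 barcodes and 19956655 to 40211991 UMIs. The 8-week untreated library stood apart: 4384 of its 9237 kept barcodes (47.5%) fell into groups with little spread between profiles (Pearson dispersion of at most 2), against 0 to 143 in the other libraries. These, called repeated barcodes below, were 27 of its 282 members, 17 of the members of the 52-week untreated library and 0 in the other 4. This measure depends on depth. The median cell that is not a fibroblast had 1077 UMIs in the 8-week untreated library and 2177 to 4347 in the others. Any pair of libraries shared 27 to 82 barcodes, and at most 1 barcode was a member in both libraries of a pair.

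The rule sets a threshold on the program UMIs, and their values are given as a description. Among collagen-low fibroblasts 287, 472 and 255 untreated and 229, 438 and 195 treated cells had 0 program UMIs, while the median member had 19, 22 and 23 UMIs untreated and 43, 48 and 60 treated. Cells just outside the threshold, with 2 UMIs, numbered 17 to 45 per library, and cells just inside, with 3 UMIs, 13 to 26. Between 65.2% and 87.2% of the members of a library had 10 or more program UMIs, and the counts of cells ran on across the threshold without a gap.

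**Figure D1:**
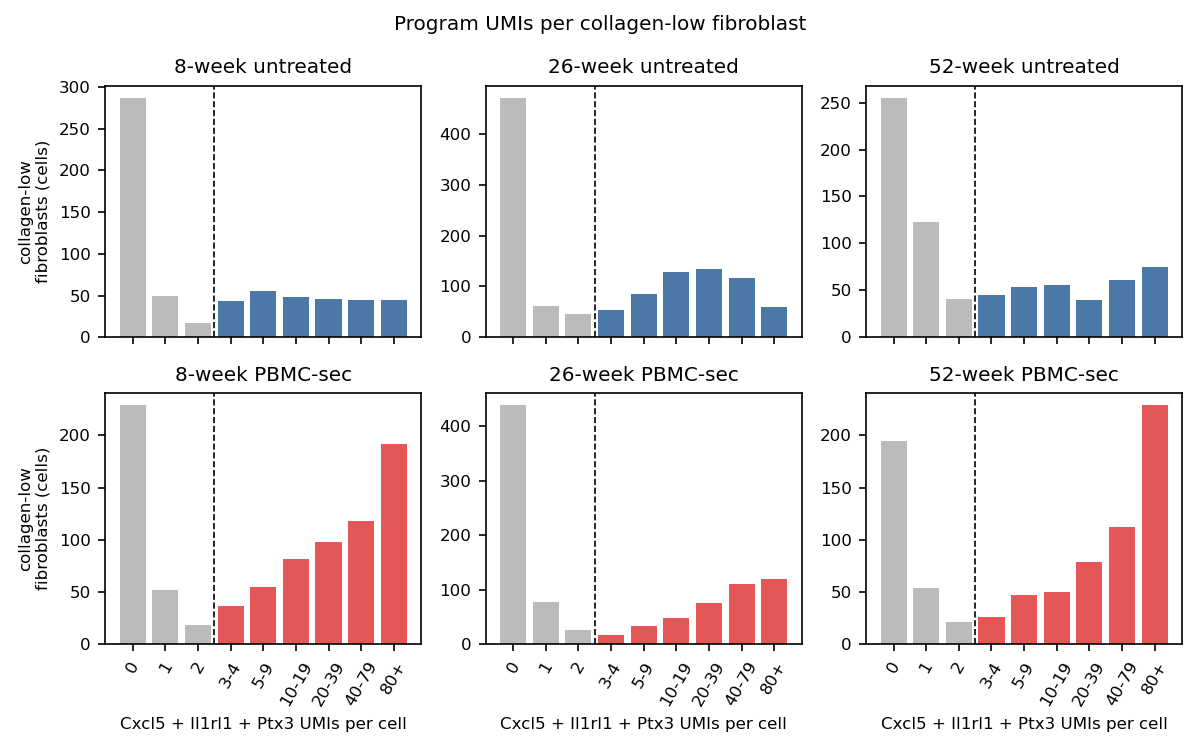
Number of collagen-low fibroblasts (vertical axis) by their summed Cxcl5, Il1rl1 and Ptx3 UMIs (horizontal axis, in bins) in each of the 6 libraries. Grey bars are cells below the threshold of 3 UMIs (dashed line) and coloured bars are the members; in every panel the tallest grey bar is at 0 UMIs, and cells with 2 UMIs number 17 to 45.

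Cxcl5, a ligand of CXCR2 (chr5:90759360-90761624 in GENCODE vM21 on GRCm38), stood at 5204, 6481 and 3460.1 CPM in the untreated libraries and 10226, 9961 and 5658 CPM in the treated ones, where CPM is the gene's UMIs per 1000000 UMIs summed over the members of a library. It was detected in 2345 of the 2723 members. The share of members with a Cxcl5 UMI was 71.6%, 92.4% and 74.0% untreated and 89.0%, 91.6% and 87.1% treated, and 62.9%, 87.6% and 62.3% against 86.2%, 89.4% and 79.1% after each cell was thinned to 1000 UMIs. Among cells that are not fibroblasts, 9.22% to 15.2% had a Cxcl5 UMI at a median depth of 1077 to 4347 UMIs, against 3178 to 8136 UMIs in members.

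Il1rl1 (chr1:40429570-40465415) stood at 2376, 1558 and 1546 CPM in the untreated libraries and 2936, 1312 and 2664 CPM in the treated ones, and its treated and untreated libraries overlapped. Ptx3 (chr3:66219910-66225805) stood at 626, 949 and 874 CPM in the untreated libraries and 887, 411 and 1254 CPM in the treated ones, with the lowest value in the 26-week treated library. Dcn, the matrix proteoglycan decorin, was detected in 2694 members and stood at 4917, 4827 and 4052 CPM in the untreated libraries and 5735, 3811 and 5829 CPM in the treated ones. The fibrillar collagen Col1a1, which the rule keeps low, ranged from 43.3 CPM in the 26-week treated to 2551 CPM in the 52-week untreated library. Most members carried more than 1 of the 3 program genes: all 3 were found in 28.0%, 36.1% and 44.7% of untreated and 36.4%, 22.7% and 51.4% of treated members.

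Members made up 3.05%, 10.4% and 8.98% of the kept cells of the untreated libraries and 10.7%, 6.85% and 11.0% of the treated ones. Of the fibroblasts they made up 43.8%, 49.0% and 38.9% untreated and 65.2%, 42.5% and 65.5% treated. The treated share was thus above the untreated one at 8 and 52 weeks and below it at 26 weeks. The log2 ratio of treated to untreated shares was 1.80, -0.60 and 0.29 for kept cells (mean 0.50 ± 1.21, SD, n = 3 ages, two-sided exact sign-flip permutation p = 0.75). For fibroblasts it was 0.58, -0.21 and 0.75 (mean 0.37 ± 0.51, SD, n = 3, exact permutation p = 0.5), and the smallest p that 3 pairs can give is 0.25. Without its repeated barcodes the 8-week untreated library had a share of 5.25% of kept cells, and the 8-week ratio was 1.02. With each cell thinned to 2000 UMIs instead, that ratio was 1.05, and at 1000 UMIs it was 1.58. The parts of repeated barcodes and of depth in the 8-week ratio were not tested. Without the 8-week pair the mean ratio for kept cells over the other ages, unthinned, was -0.15. The rule counts UMIs, and depth differed between libraries. In cells thinned to 1000 UMIs, members were 32.2%, 35.8% and 26.0% of fibroblasts untreated and 54.0%, 25.9% and 54.1% treated. Cells with fewer than 1000 UMIs were left out there. Exact binomial (Clopper-Pearson) 95% intervals, which cover counting error only, ran from 2.71% to 3.42% of kept cells in the 8-week untreated library and from 10.1% to 11.9% in the 52-week treated one.

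**Figure D2:**
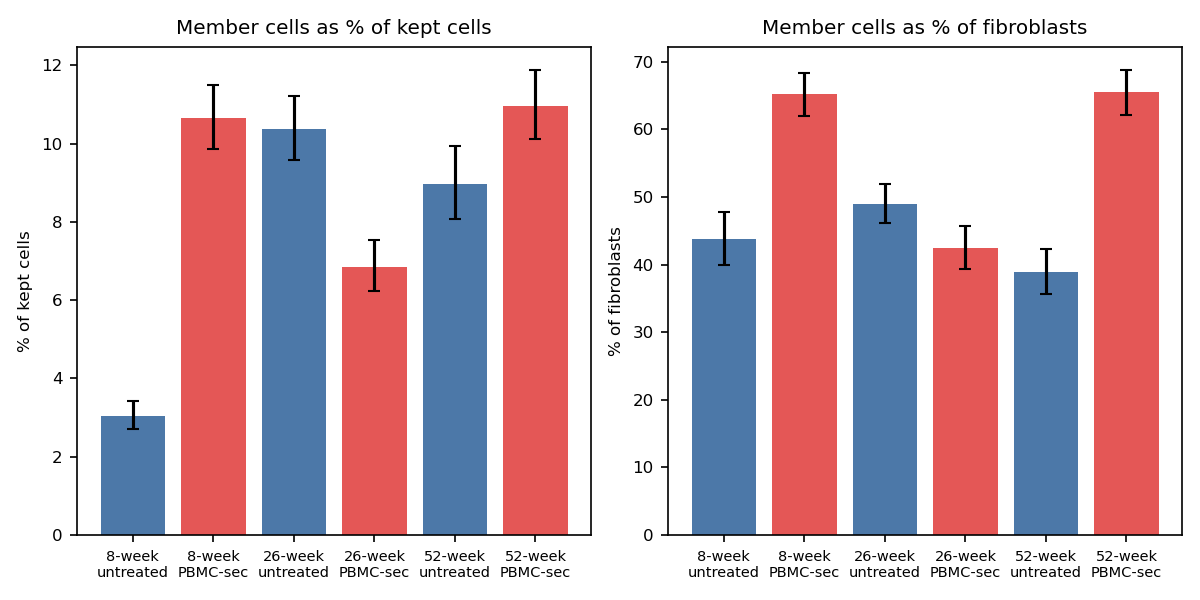
Members as a percentage of all kept cells (left) and of fibroblasts (right) in the 6 libraries, blue for untreated and red for PBMC-sec. Error bars are exact binomial 95% intervals for counting error within 1 pooled library; treated bars are higher at 8 and 52 weeks and lower at 26 weeks in both panels.

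Pdgfra, the platelet-derived growth factor receptor of fibroblasts, stood at 271, 229.8 and 286 CPM in the untreated libraries and 363, 241 and 300.4 CPM in the treated ones, against 5.34 to 18.1 CPM in cells that are not fibroblasts. Lists of markers of other cells were summed without the genes that the rule limits. The 11 keratinocyte markers left summed to 1098 to 2589 CPM untreated and 1296 to 2196 CPM treated, against 24625 to 33254 CPM in cells that are not fibroblasts. The 12 macrophage markers summed to 50.1 to 104.7 CPM untreated and 27.8 to 135 CPM treated, against 805 to 1273 CPM, and the 6 neutrophil markers to 36.0 to 147 and 12.4 to 153 CPM, against 229.7 to 1070.1 CPM. The 6 vascular markers left summed to 5.11 to 10.7 CPM untreated and 9.23 to 11.3 CPM treated, against 35.1 to 71.1 CPM. Most members still held keratinocyte UMIs, except in the 52-week treated library. With Krt5 and Krt14 counted, 3 or more were found in 274 of 282, 522 of 579 and 316 of 331 untreated members. The treated counts were 532 of 582, 350 of 406 and 211 of 543.

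Some other marker lists were not lower in members in every library. The 3 smooth muscle markers left, Acta2, Tagln and Des, reached 90.3 CPM in the 52-week untreated library, against at most 57.2 CPM in cells that are not fibroblasts, and at most 12.5 CPM in treated members. The 5 adipocyte markers summed to 40.8 to 46.7 CPM untreated and 20.3 to 32.9 CPM treated, against 5.80 to 20.6 CPM, with Adipoq, Plin1 and Cidec at 0 UMIs in all members and Lpl, a lipase, in 350 members. The 5 melanocyte markers summed to 23.2 to 31.7 CPM untreated and 16.6 to 30.4 CPM treated, against 6.19 to 20.02 CPM, with Mitf in 346 members and each of the other 4 genes in 1 to 5. The 5 lymphatic markers were lower in members, with sums of 0.921 to 2.50 CPM in all libraries, against 3.40 to 21.9 CPM, and Lyve1 and Ccl21a at 0 UMIs. The part of other cells in the results was not tested.

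Members were then set beside the 2463 collagen-low fibroblasts without the program (under 3 program UMIs), from the same libraries. The median member had 4288, 3178 and 6585 UMIs untreated and 4305.5, 4832 and 8136 treated, and the median comparison cell 1905, 1726 and 3014 untreated and 2343, 2848 and 4321 treated, so the comparison uses CPM. Of 7119 genes with at least 20 CPM in either population, 14.7% were higher in members in all 6 libraries and 17.6% were lower. Of 15 compared genes of fibroblast identity outside the rule, Pdgfra among them, 2 were higher and 4 lower in all 6 libraries. The summed CPM of these identity genes was higher in members in 2 libraries only. These counts follow from how the cells were chosen and carry no test.

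The neutrophil chemokines outside the rule were higher in members in all 6 libraries. Cxcl3 (chr5:90786103-90789600) stood at 2103, 1679 and 1380.2 CPM in the untreated libraries and 4392, 3345 and 4112 CPM in the treated ones, against 102, 59 and 136 CPM untreated and 124, 196 and 235 CPM treated in the comparison cells. Cxcl2 (chr5:90903871-90905938) stood at 6644, 8966 and 5328 CPM in the untreated libraries and 13419, 13710.0 and 9444 CPM in the treated ones, against 482, 1154 and 951 CPM untreated and 1408, 2653 and 1913 CPM treated. Cxcl1 (chr5:90891241-90893115) stood at 8999, 8693 and 6410.1 CPM in the untreated libraries and 16627, 15528 and 7748 CPM in the treated ones, against 959, 1746 and 2426 CPM untreated and 3437, 3390.3 and 2442 CPM treated. The log2 ratio of members to comparison cells was 3.30 to 5.09 for Cxcl3, 2.30 to 3.77 for Cxcl2 and 1.40 to 3.22 for Cxcl1 across libraries (with 5 CPM added to both). Cxcl1, Cxcl2 and Cxcl3 are close paralogs next to each other, and the sources do not say how reads that fit several of them were counted.

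The promoters of these 3 chemokine genes are shown because all 3 were higher in members in all 6 libraries. Whether single cells held them together was not tested. RefSeq gives the 250 bases before each start on GRCm38.p6, printed 5′ to 3′ with matches to the NF-kB consensus (both strands searched) in capitals: Cxcl3 at chr5:90785851-90786100, plus strand, Cxcl1 at chr5:90890995-90891244, plus strand, and Cxcl2 at chr5:90903649-90903898, plus strand.
Cxcl3: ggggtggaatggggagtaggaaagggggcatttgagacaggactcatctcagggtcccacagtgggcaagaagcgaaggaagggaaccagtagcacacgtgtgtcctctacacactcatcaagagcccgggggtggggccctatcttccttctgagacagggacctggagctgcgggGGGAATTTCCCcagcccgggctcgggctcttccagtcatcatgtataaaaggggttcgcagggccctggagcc
Cxcl1: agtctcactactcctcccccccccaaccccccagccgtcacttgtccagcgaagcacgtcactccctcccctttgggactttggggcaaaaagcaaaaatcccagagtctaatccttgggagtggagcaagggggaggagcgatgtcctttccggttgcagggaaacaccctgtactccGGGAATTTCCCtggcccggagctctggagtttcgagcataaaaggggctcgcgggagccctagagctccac
Cxcl2: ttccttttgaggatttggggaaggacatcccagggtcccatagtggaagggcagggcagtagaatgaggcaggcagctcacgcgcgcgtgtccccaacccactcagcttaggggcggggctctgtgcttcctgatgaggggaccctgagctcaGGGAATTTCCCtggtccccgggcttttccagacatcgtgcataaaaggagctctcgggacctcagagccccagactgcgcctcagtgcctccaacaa
The stretch begins 73, 71 and 97 bases before the start in Cxcl3, Cxcl1 and Cxcl2, and in each it is 2 overlapping matches, 1 on either strand. Of all 27025 genes with a window of this length, 8.23% hold the consensus, and the windows of Ptx3 and Il1rl1 hold no match. A match of letters describes the sequence and not binding.

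Of the 14 compared chemokines outside the CXCR2 ligands, 7 were higher in members in all 6 libraries and 1 was lower. The monocyte chemokine Ccl2 stood at 10948, 7333 and 5113 CPM in the untreated libraries and 12792, 9427 and 7940.3 CPM in the treated ones, against 1843, 1253 and 1466 CPM untreated and 1797, 1657 and 2508 CPM treated, and the eosinophil chemokine Ccl11 at 593, 423 and 332 CPM in the untreated libraries and 97.5, 45.1 and 140.2 CPM in the treated ones, against 16.1, 38.7 and 18.7 CPM untreated and 7.58, 10.2 and 11.4 CPM treated. Of 14 compared cytokines, 7 were higher in all 6 libraries and 0 lower. Il6, the cytokine interleukin-6, stood at 605, 855 and 1057 CPM in the untreated libraries and 1307, 960.1 and 1646 CPM in the treated ones, against 118, 141 and 134 CPM untreated and 279, 158 and 282 CPM treated. Csf3, which encodes the granulocyte growth factor G-CSF, stood at 468, 569 and 361 CPM in the untreated libraries and 762, 699 and 529 CPM in the treated ones, against 32.2, 88 and 40.9 CPM untreated and 89.6, 124 and 40.6 CPM treated, and Csf2 (GM-CSF) at 1097, 603 and 563 CPM in the untreated libraries and 1426, 824 and 957 CPM in the treated ones, against 92.6, 53.7 and 149.8 CPM untreated and 205, 136 and 244 CPM treated. For Il6, Csf3 and Csf2 the lowest member library was above the highest comparison library.

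Several leading genes of the members belong to other classes. The long noncoding transcript U90926 (chr5:92209893-92215408) had the largest median ratio of the leading genes shown, with a range of 3.57 to 5.69 on the log2 scale, with 261, 117 and 213 CPM in the untreated libraries and 448, 151 and 611 CPM in the treated ones. Thrombomodulin (Thbd), an anticoagulant surface receptor, stood at 446, 416 and 492 CPM in the untreated libraries and 477, 366 and 497 CPM in the treated ones, against 43.3, 68.7 and 85.2 CPM untreated and 80.8, 47.3 and 52.8 CPM treated. Complement factor B (Cfb) and complement component C3 had log2 ratios of 2.03 to 3.13 and 1.85 to 2.92. Gfpt2 (an enzyme of hexosamine synthesis), Rbp4 (a retinol carrier) and the interferon regulator Irf7 had median log2 ratios of 2.19, 2.34 and 2.46. Not all acute-phase genes were high: Saa3, serum amyloid A3, was higher in members in 3 libraries and lower in 3, and Serpina3n was lower in all 6.

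Markers of skin layers differed between the populations. Of the 13 compared reticular and fascial markers 5 were higher in members in all 6 libraries and 0 lower, and of the 9 compared papillary markers 0 were higher and 7 lower. Plac8 stood at 677, 664 and 577 CPM in the untreated libraries and 400.0, 267 and 611 CPM in the treated ones, against 51.3, 68.7 and 88.2 CPM untreated and 16.4, 15 and 33.5 CPM treated, and the complement regulator Cd55 at 38.7, 70.6 and 49.3 CPM in the untreated libraries and 87.7, 126 and 118 CPM in the treated ones, against 23.2, 22 and 12.3 CPM untreated and 6.31, 14.4 and 12.8 CPM treated. The papillary marker Crabp1, a retinoic acid-binding protein, stood at 426, 126 and 342 CPM in the untreated libraries and 409, 109.5 and 246 CPM in the treated ones, against 815, 725 and 467 CPM untreated and 561, 485 and 629 CPM treated. These values are sums over all members, and for Crabp1 members without a Cxcl5 UMI differed, as given below.

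The genes lowest in members included regulators of growth factors and of matrix. Igfbp2, an insulin-like growth factor-binding protein, had log2 ratios of -4.52 to -2.04, and Serpina3n, a protease inhibitor, of -4.73 to -2.04. Grem1, an antagonist of bone morphogenetic proteins, had ratios of -4.25 to -1.95 and Ctsk, the collagen-degrading protease cathepsin K, of -3.21 to -1.47. The collagen-binding proteoglycan lumican (Lum) stood at 197, 73.3 and 182 CPM in the untreated libraries and 179, 74.6 and 202 CPM in the treated ones, against 574, 826 and 399 CPM untreated and 987, 931 and 645 CPM treated. Htra3, Crispld2, Olfm1, Igf1r and Tgfbi were also lower in all 6 libraries, with median log2 ratios of -1.91, -1.79, -1.48, -1.60 and -1.79.

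Immediate-early genes, which dissociation can raise, were not higher in members: of 22 compared, 1 was higher and 11 lower in all 6 libraries. Of the NF-kB feedback genes 9 of 23 were higher and 2 lower. Nfkbia, the inhibitor that NF-kB itself induces, was not among the higher ones, at 2022, 1561 and 1956 CPM in the untreated libraries and 2154, 1571 and 1431 CPM in the treated ones, against 2229.9, 2012 and 1949 CPM untreated and 2811, 2334 and 1934 CPM treated. Among 17 compared genes of the NRF2 antioxidant pathway and of iron handling, 12 were higher and 0 lower, and among 21 interferon-response genes 15 were higher and 0 lower.

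**Figure D3:**
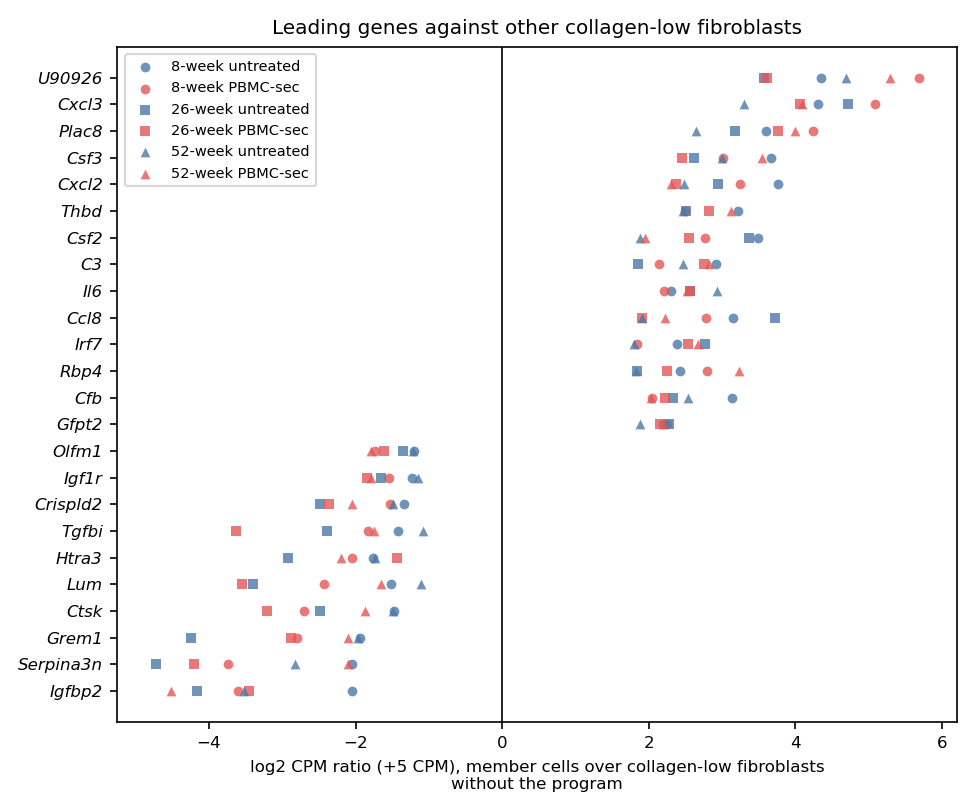
Log2 ratio of CPM (5 CPM added) in members over collagen-low fibroblasts without the program (horizontal axis) for 14 of the genes highest and the 10 genes lowest in members, with 1 point per library, blue for untreated and red for PBMC-sec, circles, squares and triangles for 8, 26 and 52 weeks. All points of the upper 14 genes lie right of 0 and all points of the lower 10 lie left of it.

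The members were not uniform. Members without a Cxcl5 UMI passed the rule through Il1rl1 and Ptx3. Cxcl3 stood at 2793, 1778 and 2039.8 CPM untreated and 4765, 3616 and 4549 CPM treated in Cxcl5-positive members, against 60.7, 226 and 120.4 and 594, 187 and 724 CPM in Cxcl5-negative ones. The neutrophil chemokine Cxcl2, Il6, Thbd and U90926 also stood higher in Cxcl5-positive members in all 6 libraries. Crabp1 went the other way: 248.8, 90.7 and 127.7 CPM untreated and 346, 46.5 and 157 CPM treated in Cxcl5-positive members, against 949.8, 649.8 and 752 and 1055, 846 and 937 CPM in Cxcl5-negative ones. In Cxcl5-negative members Crabp1 thus stood above the collagen-low fibroblasts without the program in every library except the 26-week untreated one. The matrix glycoprotein tenascin C (Tnc), Lgals3, Gdf15 and Vim were lower in Cxcl5-positive members in all 6 libraries.

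Treatment with PBMC-sec was compared with untreated skin within members, a contrast the rule did not use. UMIs were summed per library and tested with edgeR's quasi-likelihood test with age as a factor, and p-values were adjusted by Benjamini-Hochberg across all 9633 tested genes. At an adjusted p under 0.05, 147 genes (1.53%) passed, 78 (0.81%) higher and 69 (0.716%) lower in treated skin. Every condition is 1 pooled library, so these p-values measure how alike the treatment difference was at the 3 ages and not a spread between animals. In such sums a shift in which cells pass the rule and a change per cell cannot be told apart.

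The gene lists were chosen with earlier results of these data known, so their counts and medians below are description and carry no test. Of 12 tested genes of the response to osmotic stress 3 rose and 0 fell, with a median log2 change of 0.74 beside -0.01 over all genes tested. Akr1b3 (chr6:34302434-34317478), the aldose reductase that makes the osmolyte sorbitol, stood at 88, 94.2 and 57.9 CPM in the untreated libraries and 756, 717 and 539 CPM in the treated ones, a log2 change of 3.11 ± 0.16 (SE, n = 3 libraries a group, edgeR adjusted p = 0.00228). All treated libraries lay above all untreated ones. Hspa4l, a chaperone of the HSP110 family, stood at 80.7, 73.3 and 62.2 CPM in the untreated libraries and 303, 280.3 and 285 CPM in the treated ones (log2 2.04 ± 0.15, edgeR adjusted p = 0.00484). Fxyd2, a regulator of the sodium-potassium pump, stood at 5.33, 2.32 and 2.16 CPM in the untreated libraries and 45.1, 51.1 and 55.8 CPM in the treated ones (log2 4.09 ± 0.32, edgeR adjusted p = 0.00484). The inositol transporter Slc5a3 and the taurine transporter Slc6a6 had log2 values of 1.02 ± 0.21 and 0.62 ± 0.13 that did not pass (edgeR adjusted p = 0.0761 and 0.0806).

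Of the 18 NRF2 and iron genes 5 rose and 0 fell, with a median of 0.45. The quinone reductase Nqo1 (chr8:107388225-107403206) stood at 40.7, 61.7 and 31.7 CPM in the untreated libraries and 171, 364 and 216 CPM in the treated ones, a log2 change of 2.50 ± 0.19 (edgeR adjusted p = 0.00484). The cystine transporter Slc7a11 stood at 95.3, 185 and 163 CPM in the untreated libraries and 287, 451 and 442 CPM in the treated ones (log2 1.46 ± 0.14, edgeR adjusted p = 0.0114), and the peroxide-reducing enzyme Prdx1 at 1462, 2676 and 1604 CPM in the untreated libraries and 3196, 8428 and 5066 CPM in the treated ones (log2 1.51 ± 0.18, edgeR adjusted p = 0.023). In each of these genes all treated libraries lay above all untreated ones. Gclc, which starts glutathione synthesis, and Srxn1, which repairs peroxiredoxins, rose by log2 changes of 1.45 ± 0.22 and 1.17 ± 0.18 (edgeR adjusted p = 0.037 and 0.0364). Hmox1 and the ferritin gene Fth1 had log2 values of 0.11 ± 0.14 and 0.49 ± 0.27 and did not pass (edgeR adjusted p = 0.751 and 0.397). Of the 18 genes, 15 matched a RefSeq promoter, and 5 of these (33.3%) held the antioxidant response element core TGACNNNGC in 250 bases, on either strand, beside 14.5% of the 7674 matched genes tested and 11.5% of all 27025 genes. Of the genes that rose, Prdx1 held 1 match and Nqo1, Slc7a11 and Srxn1 held 0.

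Enzymes and linker histones led the other rises. Sult1e1, the estrogen sulfotransferase, stood at 0.667, 3.71 and 0.720 CPM in the untreated libraries and 31.3, 87.9 and 23.8 CPM in the treated ones (log2 4.78 ± 0.27, edgeR adjusted p = 0.00242), and it was found in 91 members only. Akr1c18, a steroid-reducing enzyme, rose by log2 3.06 ± 0.31 (edgeR adjusted p = 0.0134). The linker histones H1f0 and Hist1h1c rose by 2.27 ± 0.16 and 2.24 ± 0.17 (edgeR adjusted p = 0.00484 and 0.00484), from 120.0, 54.3 and 117 to 535, 345 and 451 CPM for H1f0. Tmem182, Gm45716, Heph (a ferroxidase) and the chemokine scavenger Ackr2 completed the 12 largest rises among genes not prone to free RNA, with log2 changes of 3.95 ± 0.61, 2.71 ± 0.37, 2.71 ± 0.32 and 2.65 ± 0.40 (edgeR adjusted p = 0.0394, 0.0308, 0.023 and 0.0364).

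Trdc, annotated as the constant region of the T cell receptor delta chain (chr14:54142851-54148868), was also among the 12 largest rises. It stood at 60.7, 41.3 and 50.7 CPM in the untreated libraries and 268, 305 and 455 CPM in the treated ones (log2 2.77 ± 0.23, edgeR adjusted p = 0.00484) and was detected in 613 members. In cells that are not fibroblasts it stood at only 4.43 to 11.5 CPM. The 10 other T or innate lymphoid markers summed to 18.1 to 40.0 CPM in untreated and 19.3 to 24.3 CPM in treated members, and Cd3e, Cd3d and Cd3g, which a T cell receptor needs at the surface, were detected in 13, 11 and 9 of the 2723 members. Other fibroblasts held it too, at 11.9, 37.2 and 5.96 CPM untreated and 69, 78.8 and 66.2 CPM treated.

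Of the neutrophil chemokines Cxcl3 rose, by log2 1.23 ± 0.19 (edgeR adjusted p = 0.0378), with all treated libraries above all untreated ones. Cxcl2 and Cxcl1 had log2 values of 0.84 ± 0.17 and 0.69 ± 0.18 and did not pass (edgeR adjusted p = 0.0722 and 0.107). Il6 had 0.67 ± 0.21 (edgeR adjusted p = 0.161), and none of the 14 tested cytokines rose, while Il33, the alarmin that binds ST2, fell, with a log2 change of -0.99 ± 0.13 (edgeR adjusted p = 0.0278), with 175, 152 and 329 CPM untreated and 84.5, 77.3 and 162 CPM treated, groups that overlapped across ages. Pla2g4a, the phospholipase that frees arachidonic acid for prostaglandins, rose by log2 1.18 ± 0.14 (edgeR adjusted p = 0.023), and Ptgs2 had 0.52 ± 0.16 (edgeR adjusted p = 0.166). Of 23 tested matrix proteases and their inhibitors 2 rose and 0 fell, with 12 positive and 11 negative values. Mmp13 and Mmp19 rose by 2.13 ± 0.32 and 0.93 ± 0.14 (edgeR adjusted p = 0.037 and 0.0391). Over 12 alternative runs Mmp19 had log2 changes of 0.33 to 1.07 and lost its call in 5. Up to 75 Mmp19 UMIs came from a single cell, in the 52-week treated library. Mmp13 stood at 456 to 996 CPM in cells that are not fibroblasts, and the part of free RNA in its value was not tested.

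Of 21 tested interferon-response genes 3 fell and 0 rose, 19 had negative values, and the median log2 change was -1.48. Ifit3 (chr19:34583531-34588731), which encodes an antiviral RNA-response protein, stood at 547, 219.6 and 115 CPM in the untreated libraries and 37.7, 18 and 39.8 CPM in the treated ones (log2 -2.95 ± 0.48, edgeR adjusted p = 0.0439). Oasl2, a gene of the oligoadenylate synthetase family, stood at 189, 113 and 109.7 CPM in the untreated libraries and 36.6, 35 and 56.5 CPM in the treated ones (log2 -1.63 ± 0.28, edgeR adjusted p = 0.0481). In both genes all treated libraries lay below all untreated ones. The list median was -2.29 at 8 weeks, -1.71 at 26 weeks and -0.45 at 52 weeks, and the difference between ages was not tested. Isg15 had -1.52 ± 0.38 and Irf7 -1.61 ± 0.34, which did not pass (edgeR adjusted p = 0.103 and 0.0776).

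Cxcl10 (chr5:92346638-92348889), a ligand of CXCR3, a chemokine receptor of T cells, stood at 1028, 208 and 133 CPM in the untreated libraries and 33.8, 21.2 and 35 CPM in the treated ones (log2 -3.35 ± 0.56, edgeR adjusted p = 0.045). Ccl11 fell, with a log2 change of -2.31 ± 0.39 (edgeR adjusted p = 0.045). Of 15 tested chemokines outside the CXCR2 ligands these 2 fell and 0 rose, with a median of -0.83 and age medians of -1.03, -3.00 and -0.22. The medians weigh each gene alike, and Ccl3 and Ccl4 were detected in only 24 and 46 members. Summed over the 16 listed genes, the CPM was 19358.5, 11795 and 8581 untreated and 18264, 12827 and 11943 treated. Isg20 (an RNA exonuclease), Psmb9 (a subunit of the immunoproteasome) and Ifit3b, a near copy of Ifit3 whose reads may not be separable, fell, with log2 changes of -2.27 ± 0.27, -2.16 ± 0.38 and -3.14 ± 0.52 (edgeR adjusted p = 0.023, 0.049 and 0.0449).

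The promoters of Ifit3 and Cxcl10 are shown because both genes fell and both hold the core of the interferon-stimulated response element (GAAA, any 2 bases, GAAA) on either strand. RefSeq gives the 250 bases before each start on GRCm38.p6, printed 5′ to 3′ with the element in capitals, at chr19:34583279-34583528, plus strand for Ifit3, and at chr5:92348890-92349139, minus strand for Cxcl10.
Ifit3: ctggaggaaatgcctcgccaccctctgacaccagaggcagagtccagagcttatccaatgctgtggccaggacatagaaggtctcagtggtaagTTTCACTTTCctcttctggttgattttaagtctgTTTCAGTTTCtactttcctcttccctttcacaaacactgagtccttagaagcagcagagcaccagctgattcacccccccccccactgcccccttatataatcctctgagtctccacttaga
Cxcl10: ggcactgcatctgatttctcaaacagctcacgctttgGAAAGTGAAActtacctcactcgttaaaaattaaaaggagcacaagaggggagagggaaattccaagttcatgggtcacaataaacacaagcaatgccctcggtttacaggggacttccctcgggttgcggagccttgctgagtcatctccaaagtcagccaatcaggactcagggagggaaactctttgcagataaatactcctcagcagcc
Ifit3 held 2 matches and Cxcl10 1. Of the interferon-response list 16 genes matched a promoter and 8 of them held the element, beside 3.13% of the 7674 matched genes tested and 3.46% of all 27025 genes. Among the genes that fell with treatment 8 of 44 matched ones (18.2%) held it, and among those that rose 2 of 56 (3.57%).

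Of 33 tested structural matrix genes 3 fell and 0 rose, with a median of -0.44. Col6a3, a chain of microfibrillar collagen VI, stood at 117, 70.1 and 206 CPM in the untreated libraries and 50.3, 26.2 and 69.8 CPM in the treated ones (log2 -1.37 ± 0.14, edgeR adjusted p = 0.0134). Col16a1 and osteoglycin (Ogn) fell, with log2 changes of -1.46 ± 0.18 and -2.09 ± 0.24 (edgeR adjusted p = 0.0245 and 0.023). Outside that list Ccn5, a matricellular protein, stood at 63.3, 6.96 and 69.1 CPM in the untreated libraries and 3.17, 0.921 and 7.50 CPM in the treated ones (log2 -3.46 ± 0.29, edgeR adjusted p = 0.00484), with overlapping groups but a lower treated library at each age. The lipid enzyme gene Hacd4 fell, with a log2 change of -3.45 ± 0.41 (adjusted p = 0.023, edgeR), the thrombospondin gene Thbs4 at -2.19 ± 0.27 and the collagen-related gene Cthrc1 at -2.65 ± 0.43 (edgeR adjusted p = 0.023 and 0.0432). Cthrc1 was detected in 9, 3 and 120 untreated and 8, 2 and 36 treated members. Thbs4 was detected in 36, 13 and 74 untreated and 59, 5 and 46 treated members. Up to 286 Thbs4 UMIs came from a single cell, in the 52-week untreated library. The antioxidant selenoprotein gene Gpx3 stood at 429, 140.2 and 252 CPM in the untreated libraries and 126, 52 and 66 CPM in the treated ones (log2 -1.69 ± 0.14, edgeR adjusted p = 0.00484).

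Single genes of the remaining lists moved in both directions. Of 14 tested reticular and fascial markers Cd55 and Sema3c rose by 1.11 ± 0.16 and 1.25 ± 0.19 (edgeR adjusted p = 0.0361 and 0.0364), and Gpx3 was the 1 that fell. Thy1, a surface protein of fibroblasts, fell, with a log2 change of -1.20 ± 0.20 (edgeR adjusted p = 0.0443). The receptor for leukemia inhibitory factor, Lifr, fell, with a log2 change of -2.10 ± 0.31 (edgeR adjusted p = 0.0361), 1 of 19 tested cytokine receptors to pass. Cyclin D1 (Ccnd1) fell, with a log2 change of -1.25 ± 0.15 and the cell cycle inhibitor Cdkn2b rose by 1.07 ± 0.17 (edgeR adjusted p = 0.023 and 0.0412). The heat shock genes Hspa1a and Hspa1b, near copies of each other, fell, with log2 changes of -1.03 ± 0.13 and -1.02 ± 0.15 (edgeR adjusted p = 0.0245 and 0.037). Ncam1, Rasa4, Tgfbi, Birc5 and the keratinocyte gene Krt15 also fell, and Tgfbi and Krt15 stood higher in cells that are not fibroblasts in every library.

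**Figure D4:**
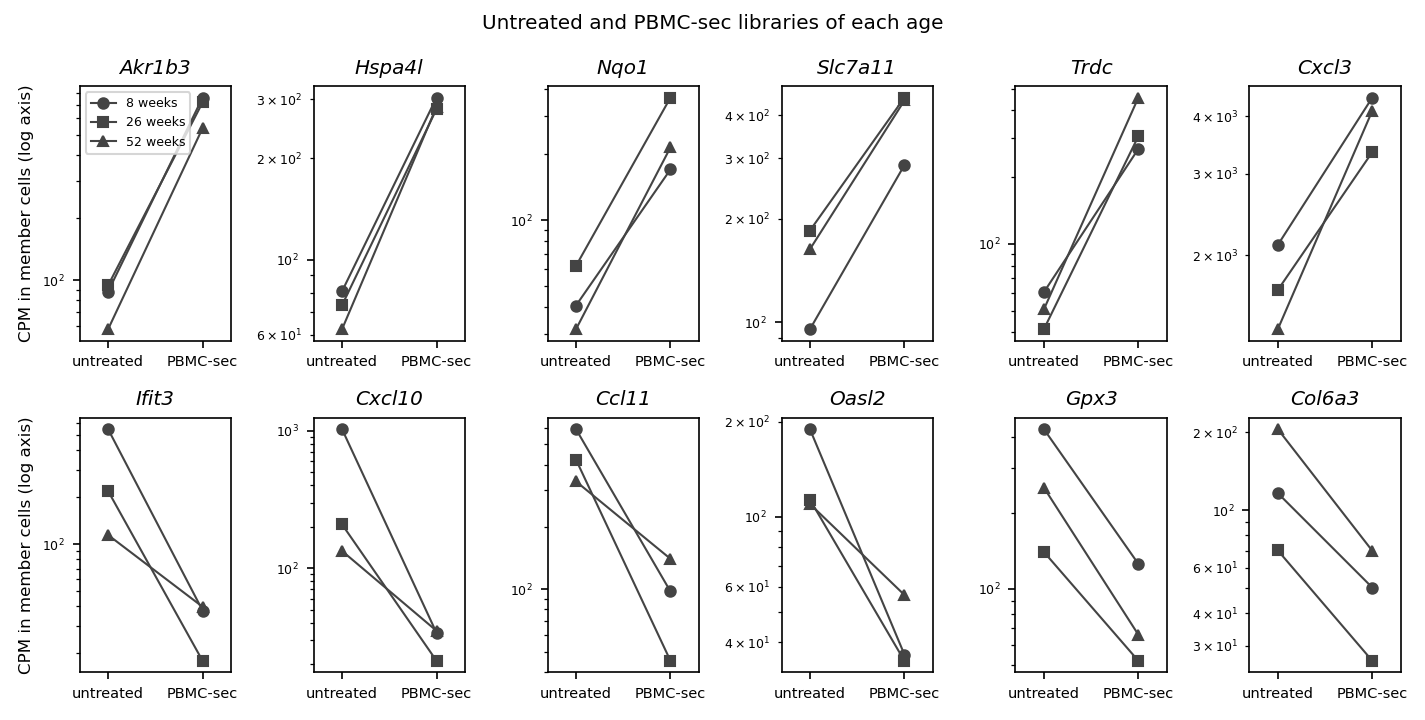
CPM in members (vertical log axis, its range set for each gene) in the untreated and the PBMC-sec library of each age, joined by a line, for 6 genes that rose and 6 that fell with treatment. Circles, squares and triangles are 8, 26 and 52 weeks; all lines of the upper row go up and all lines of the lower row go down.

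No gene of the lists on immediate-early genes, the unfolded protein response, NF-kB feedback, acute-phase proteins, glycolysis, growth factors, oxidative phosphorylation or papillary markers passed in either direction. Their median log2 changes lay between -0.36 for the unfolded protein response and 0.13 for growth factors. Of these, the acute-phase list was the least even across ages, with medians of -0.54, -0.72 and 0.40.

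**Figure D5:**
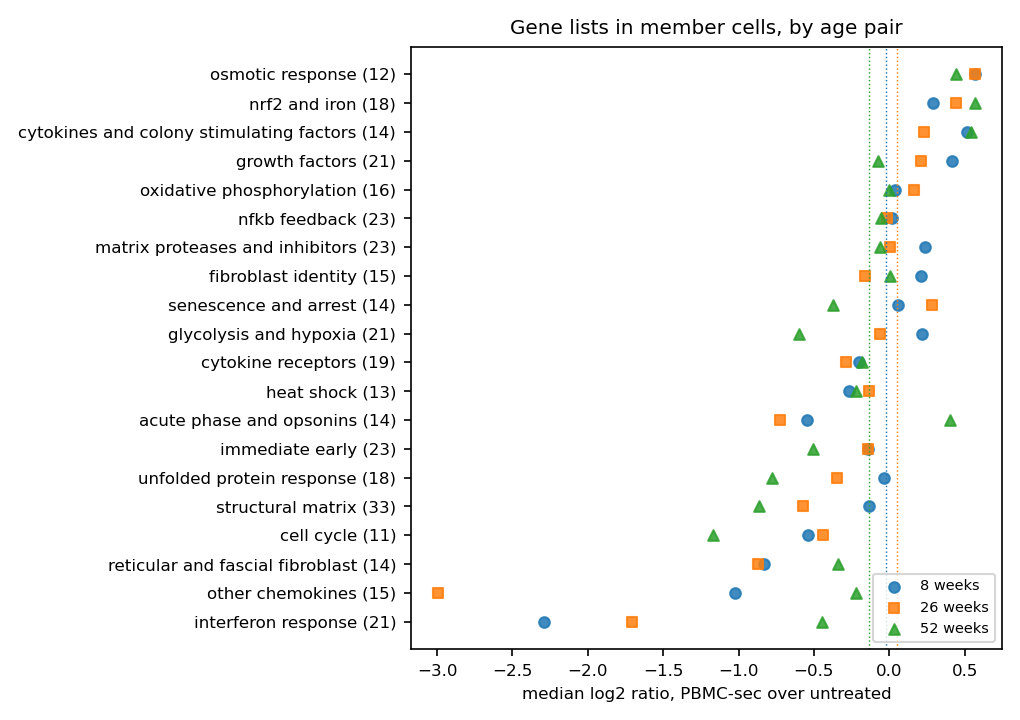
Median log2 ratio of PBMC-sec over untreated CPM in members (horizontal axis) for each gene list with at least 10 tested genes (number in brackets), with 1 symbol per age. Dotted lines are the medians over all tested genes at each age. Chemokines other than the CXCR2 ligands lie farthest left, at -3.00 at 26 weeks, and interferon-response genes run from -2.29 at 8 weeks to -0.45 at 52 weeks. Medians weigh each gene alike: the summed CPM of these chemokines at 26 weeks was 11795 untreated and 12827 treated.

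The number of passing genes depended on the ages used. Without the 8-week pair, which includes the library with repeated barcodes, 24 genes passed and 11 of them were among the 147; without the 26-week pair 55 passed, 42 of them shared, and without the 52-week pair 585 passed, 138 of them shared. Without the repeated barcodes alone 150 genes passed. Akr1b3, Fxyd2 and Trdc passed under all 12 alternatives, with log2 changes of 2.99 to 3.32, 3.70 to 4.71 and 2.50 or more. Without the 8-week pair the edgeR adjusted p was 0.193 for Cxcl3, 0.242 for Ifit3, 0.16 for Cxcl10, 0.119 for Slc7a11 and 0.077 for Col6a3, and without the 26-week pair it was 0.0684 for Cxcl3 and 0.105 for Ifit3 and Cxcl10.

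Whether members and other fibroblasts responded differently was tested as an interaction over 12 sums, with library as a block. Of 9984 genes 14 (0.14%) passed, 13 (0.13%) with a higher and 1 (0.01%) with a lower treatment change in members. Without repeated barcodes 2 genes passed, Col6a3 among them, and without the 8-week pair 0. DESeq2 also called 14, of which 7 were shared. The lower one was Col6a3: other fibroblasts stood at 189, 94.6 and 381 CPM untreated and 293, 130.3 and 331 CPM treated, a log2 value of 0.30, beside the fall in members (difference -1.64, edgeR adjusted p = 0.00328, and 0.315 without the 8-week pair). The other 13 were led by cornified envelope genes of keratinocytes, Lce1d, 2210017I01Rik, Lce1i, Lce1f and Lce1c, each found in 7 to 14 of the 2723 members. Up to 292 UMIs of Lce1d and 366 of Lce1i came from a single cell. For Akr1b3 the change in other fibroblasts was 3.11, beside 3.11 in members (interaction adjusted p = 0.993 in edgeR), and for Ifit3 -2.32 beside -2.95 (interaction adjusted p = 0.843 in edgeR). None of the interferon, NRF2, osmotic or chemokine genes passed the interaction test. Other fibroblasts alone had 312 passing genes of 8316 (3.75%), 126 (1.52%) higher and 186 (2.24%) lower, among them 15 of 20 interferon-response genes, all lower. The higher ones included 7 of 18 NRF2 and iron genes, 4 of 11 osmotic genes and 2 of 3 neutrophil chemokines outside the rule, with 0 lower. The median log2 changes of these 3 lists were 0.72, 0.57 and 1.07 in other fibroblasts, beside 0.45, 0.74 and 0.84 in members.

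Age was tested in the same fit, 52 against 8 weeks, with both libraries of an age as its samples. In edgeR 0 of 9633 genes (0.0%) passed, the smallest adjusted p was 0.0929, and 1205 genes had an unadjusted p under 0.05. DESeq2 called 33, 20 of them higher and 13 lower at 52 weeks. The smallest p-values among higher genes included Cdkn2a, a senescence-associated gene, at 0.667, 3.71 and 7.56 CPM in the untreated libraries and 1.06, 4.60 and 22.3 CPM in the treated ones (log2 4.08, edgeR adjusted p = 0.2) in 70 members. They also included the noncoding transcript 2410006H16Rik at 414, 298 and 1178 CPM in the untreated libraries and 331, 285 and 844 CPM in the treated ones (log2 1.41, edgeR adjusted p = 0.2). Among lower ones were Ccnd1 (log2 -1.05, edgeR adjusted p = 0.2) and the tubulin gene Tubb4b, at 169, 158 and 101 CPM in the untreated libraries and 177, 166 and 80.2 CPM in the treated ones (log2 -0.96, edgeR adjusted p = 0.2). In the comparison cells Cdkn2a stood at 3.02, 11.4 and 35 CPM untreated and 1.26, 8.38 and 63.5 CPM treated. In members up to 20 Cdkn2a UMIs came from a single cell, in the 52-week treated library.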

How the data were processed

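Cells of dissociated dorsal skin were sequenced in droplets with a 3′ kit, per the labels' protocols. The deposited values are raw UMI counts per gene and barcode, made with Cell Ranger 5.0.1 per the file headers on mm10, per the submitters' processing notes. Members, gene lists and tests were chosen with earlier results of these data known. UMI counts of members were summed per library and fitted in edgeR 4.0.16 (R 4.3.3) with TMM scaling, filterByExpr and quasi-likelihood tests, with 2 residual degrees of freedom for treatment. The alternative tool was DESeq2 1.42.0. Adjusted p-values are Benjamini-Hochberg values with a threshold of 0.05. Genes named for treatment are the 12 largest rises and 12 largest falls among called genes with 1 sign at all ages, outside the rule and with a level in cells that are not fibroblasts at most 5 times that in members, plus called genes of the lists. Genes named against collagen-low fibroblasts are the 15 highest and 10 lowest by their least favourable library, with at least 50 CPM. Scripts ran in Python 3.11.15 with scanpy 1.11.5 and scipy 1.17.1 and were tested on simulated data. Doublets were kept, since the rule sets no limit on them. Scrublet's automatic threshold marked 0 or 1 cells a library and so did not work, and an alternative removed the top scores at 0.8% per 1000 barcodes. Repeated barcodes are groups of 10 or more with a Pearson dispersion of at most 2 in fine Leiden clusters. Depth per library and per cell is given with the results. Replicates are pooled libraries of different ages, so p-values measure only the spread between these. Mx1 was not analysed here, the listed name Cd39 is that of Entpd1, which was analysed, and some genes that the naming rule takes are not reported here.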

Additional observations from a re-analysis of the deposited data

Results flagged for a closer look

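The share of members moved with treatment in opposite directions at different ages, and this difference between ages was not tested. The log2 ratio of treated to untreated shares of kept cells was 1.80 at 8 weeks, -0.60 at 26 weeks and 0.29 at 52 weeks. Of fibroblasts it was 0.58, -0.21 and 0.75. Each value compares 1 pooled library with another.

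For 6 named genes edgeR's interaction test of members against other fibroblasts passed after Benjamini-Hochberg adjustment, and for 5 of them the counts came from few cells. The adjusted p was 1.95e-05 for Lce1i, 0.000353 for Lce1d, 0.000783 for Lce1c, 0.00344 for Lce1f and 0.00588 for 2210017I01Rik, genes found in 7 to 14 members each. A single cell held 329 Lce1i UMIs in the 26-week treated library and 366 in the 52-week treated one. For these 5 genes the test cannot separate a response of members from a few cells with keratinocyte transcripts. For Col6a3 the adjusted p was 0.00328. Without the 8-week pair none of the 6 passed, and in DESeq2 Col6a3 passed and the other 5 did not.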

How the results depend on the processing

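For treatment, 147 genes passed in edgeR, 253 in DESeq2 (113 higher and 140 lower), 850 without the expression filter, 277 after thinning to 1000 UMIs (108 higher and 169 lower), 229 in Cxcl5-positive members (an alternative added after seeing the data) and 12 without the age term that pairs the libraries. Leaving out 1 age gave 24 to 585. No named gene changed sign in any alternative run. Of 51 named genes, 43 lost their call without the 8-week pair, 30 without the 26-week pair and 46 without the age term. For age, 0 genes passed in edgeR, 33 in DESeq2, 232 without the filter, 12 after thinning, 2 without members holding an immune or Krt5 UMI, 1 in Cxcl5-positive members, and 0 to 447 with 1 library left out, the highest without the 52-week treated one and 264 without the 52-week untreated one. For the difference between members and other fibroblasts, 14 genes passed, 14 in DESeq2 (7 of them shared, with 5 of the 6 named genes no longer called), 261 without the filter, 2 without members holding an immune or Krt5 UMI, 2 without repeated barcodes (added after seeing the data), 72 with a population and age interaction, and 0 to 47 with 1 age left out. The cause was not tested. The mean log2 ratio of treated to untreated shares moved by less than its SD over the ages under all alternatives run. For kept cells it changed sign without the 8-week pair. The shares themselves moved: that of the 8-week untreated library was 3.05% of kept cells, 5.25% without repeated barcodes and 6.46% after thinning to 2000 UMIs. With 1 pooled library per condition, differences between animals cannot be seen.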
